A study of Mus musculus with 6 samples.

Results

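The genes of the major histocompatibility complex (MHC), called H2 in the mouse, and of antigen presentation were followed in liver RNA of fasted mice that lack Acss2 and of wild-type mice. The members were the table's protein-coding rows whose symbol begins with H2-, together with B2m, Tap1, Tap2, Tapbp, Tapbpl, Cd74, Cd1d1, Mr1, Erap1, Nlrc5 and Ciita. They numbered 27 of the 12366 genes listed, 20 of class I and 7 of class II. The Acss2-KO group held 3 liver libraries from Acss2-/- mice and the WT group 3 libraries from wild-type mice. All mice were C57BL/6 males aged 22 weeks, kept on chow and then fasted for 48 h. Acss2 encodes the enzyme that makes acetyl-CoA from acetate in the cytosol and nucleus. The labels do not tell how the allele was made or in which cells it is deleted, nor whether each library is 1 animal, so p-values reflect only how these libraries vary among themselves, which may be technical. Libraries are called KO1 to KO3 and WT1 to WT3 by genotype and replicate.

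Class I molecules pair a heavy chain with the light chain beta-2 microglobulin and show peptides from the cell's own proteins to CD8 T cells. Most nucleated cells carry them. Class II molecules pair an alpha with a beta chain and show peptides from endosomes to CD4 T cells, and in the liver they are known mainly from dendritic cells, B cells, Kupffer cells (the resident macrophages) and sinusoidal endothelium. Interferon gamma induces both classes, through factors such as Irf1 and the transactivators Nlrc5 for class I and Ciita for class II. These transactivators do not bind DNA themselves. They dock on factors that sit on short promoter elements called the X and Y boxes.

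The deposited values are log2 CPM, read counts scaled to a common library total of 1e6, and were turned here into CPM. Values under 1 CPM are listed at 0. Estimated depth was 21.8 to 28.6 M reads in Acss2-KO and 23.3 to 30.8 M reads in WT, so 5 CPM stood for 109 to 154 reads. Acss2 itself was at 1.37 to 3.56 CPM in Acss2-KO livers and at 73.5 to 81 CPM in WT livers, as the labels of all 6 have it. Genes averaging 5 CPM or more were tested with limma on log2(CPM + 1), and a change means an adjusted p under 0.05 over 9355 genes. Of the 27 members, 20 were tested. Heavy chain genes of the H2 region resemble each other closely and no source used here tells how reads that match several of them were counted, so the values of single H2-K, H2-D, H2-Q and H2-T genes are uncertain.

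Promoter windows were available in RefSeq (build GRCm38.p6, 250 bases before to 50 after the annotated start) for 18 members. H2-Q1, H2-T24, Cd1d1, Tap2, Tapbpl, Nlrc5, H2-Ab1, Cd74 and Ciita were not matched. The windows of 2 class II chains, of a classical class I heavy chain and of the light chain are shown because these genes carry the contrast described below. Capitals mark 4 motifs, each searched on both strands, whose matches may overlap. The core of the X2 box was taken as TGACG. The core of the Y box, which the factor NF-Y binds, was taken as ATTGG. The interferon response element was taken as a pair of GAAA units with 2 free bases between them, and the kappa B element as GGG and TTCCC with 2 free bases between them.
H2-Aa (chr17:34287774-34288073, minus strand): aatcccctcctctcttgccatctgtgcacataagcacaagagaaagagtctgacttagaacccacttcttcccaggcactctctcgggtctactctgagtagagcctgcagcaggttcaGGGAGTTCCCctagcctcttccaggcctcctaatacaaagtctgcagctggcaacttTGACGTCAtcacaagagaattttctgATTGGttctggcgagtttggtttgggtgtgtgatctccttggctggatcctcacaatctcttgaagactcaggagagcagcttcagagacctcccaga
H2-Eb1 (chr17:34305617-34305916, plus strand): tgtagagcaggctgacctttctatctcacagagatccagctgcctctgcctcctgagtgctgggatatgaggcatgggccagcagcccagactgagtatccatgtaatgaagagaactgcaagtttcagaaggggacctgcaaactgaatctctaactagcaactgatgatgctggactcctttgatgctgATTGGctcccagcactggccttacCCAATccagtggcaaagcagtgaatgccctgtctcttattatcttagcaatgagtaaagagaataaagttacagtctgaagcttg
H2-K1 (chr17:34000298-34000597, minus strand): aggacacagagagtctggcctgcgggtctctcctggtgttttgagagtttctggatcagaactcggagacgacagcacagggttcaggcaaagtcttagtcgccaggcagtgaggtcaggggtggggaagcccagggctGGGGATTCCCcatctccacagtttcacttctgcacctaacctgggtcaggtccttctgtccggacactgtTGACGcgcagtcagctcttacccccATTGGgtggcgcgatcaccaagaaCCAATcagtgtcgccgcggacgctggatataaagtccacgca
B2m (chr2:122147437-122147736, plus strand): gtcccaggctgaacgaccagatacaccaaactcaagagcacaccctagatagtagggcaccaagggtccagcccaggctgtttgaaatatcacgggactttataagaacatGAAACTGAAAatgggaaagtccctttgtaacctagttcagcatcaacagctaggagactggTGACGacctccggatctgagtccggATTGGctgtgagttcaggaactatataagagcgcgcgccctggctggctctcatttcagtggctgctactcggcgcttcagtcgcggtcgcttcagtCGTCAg

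An X2 core followed by a Y core on the gene's strand, with their first bases 23 to 27 apart, was found in 0.152% of all 32851 RefSeq promoter windows. The spacing was set after these windows were seen. It occurred in 5 of the 14 class I windows (H2-K1, H2-D1, H2-Q7, H2-M3 and B2m) and in 1 of the 4 class II windows (H2-Aa). Only exact cores were counted. The H2-Eb1 and H2-DMb1 stretches read tgatg, not TGACG, within that spacing of the Y core, and whether such near matches act as X boxes was not tested. The 40 bases that end with the Y core are set under each other here, with the X2 and Y cores in capitals. They show which members hold both exact cores in this layout: H2-K1, H2-D1, H2-Q7, H2-M3, B2m and H2-Aa do, and H2-Q4, H2-Q6, H2-T22, H2-Eb1 and H2-DMb1 do not.
H2-K1: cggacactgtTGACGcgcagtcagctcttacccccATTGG
H2-D1: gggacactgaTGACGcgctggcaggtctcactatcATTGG
H2-Q7: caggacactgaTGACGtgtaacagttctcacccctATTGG
H2-Q6: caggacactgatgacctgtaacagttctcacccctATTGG
H2-M3: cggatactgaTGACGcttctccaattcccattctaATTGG
H2-Q4: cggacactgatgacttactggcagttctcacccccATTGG
H2-T22: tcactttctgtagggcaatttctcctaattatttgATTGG
B2m: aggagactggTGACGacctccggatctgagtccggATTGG
H2-Aa: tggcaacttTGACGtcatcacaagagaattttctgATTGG
H2-Eb1: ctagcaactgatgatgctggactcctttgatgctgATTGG
H2-DMb1: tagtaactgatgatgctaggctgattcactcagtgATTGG
The H2-Q6 stretch differs from that of H2-Q7 by 1 substitution, G16C (H2-Q7 base first, counted from the 5′ end), which falls on the last base of the X2 core. A kappa B match stood in 5 class I windows and in that of H2-Aa, against 1.75% of all windows. An interferon response element match stood in the windows of B2m, H2-T22, H2-T23 and Erap1 and in none of the 4 class II windows, against 3.44% of all windows. TGACG alone occurred in 20.8% and ATTGG alone in 37.4% of all windows. These matches describe the letters of the windows only.

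**Figure D1:**
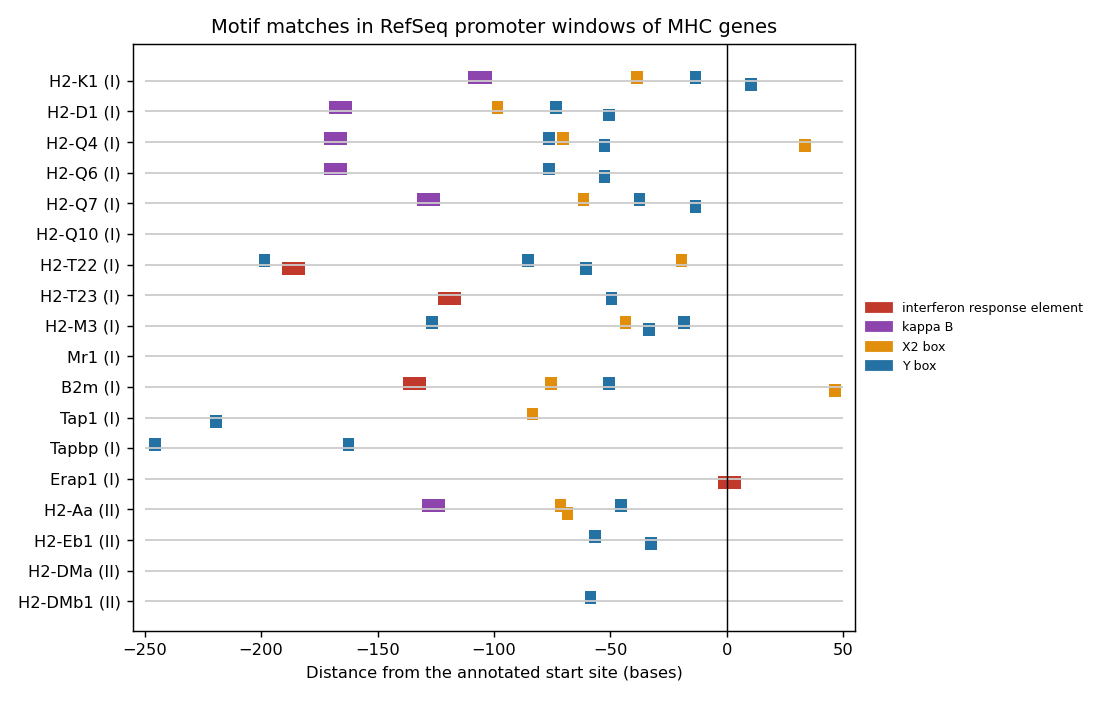
Motif matches along the RefSeq promoter windows of 18 MHC genes, by distance from the annotated start site in bases; bars above a line are on the gene's strand and bars below it on the other, and I and II give the class. An X2 box (orange) stands 23 to 27 bases before a Y box (blue) in H2-K1, H2-D1, H2-Q7, H2-M3, B2m and H2-Aa.

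Class II transcripts were far lower in the Acss2-KO livers. H2-Aa, the alpha chain of I-A (chromosome 17, 34282744 to 34287827), was at 3.97, 6.5 and 3.86 CPM in Acss2-KO and at 24.9, 85 and 33.6 CPM in WT. The groups did not overlap, WT2 stood far above the other WT libraries, and KO2 was the highest of its group. Mean levels were 4.78 ± 1.49 CPM in Acss2-KO and 47.9 ± 32.5 CPM in WT (SD, n = 3 each), and the log2 fold change was -2.91 (SE 0.43, limma adjusted p = 0.00325). H2-Ab1, the matching beta chain (34263209 to 34269418), was at 3.56, 6.23 and 2.85 CPM in Acss2-KO and at 20, 64.9 and 19.6 CPM in WT. It fell by 2.60 on the log2 scale (SE 0.49, limma adjusted p = 0.0077). H2-Eb1, the beta chain of I-E (34305877 to 34316199), was at 2.03, 4.29 and 2.01 CPM in Acss2-KO and at 16.3, 62.7 and 18.5 CPM in WT, with a log2 fold change of -2.93 (SE 0.52, limma adjusted p = 0.00697). The 3 chain genes thus had the same order of libraries at their upper ends, with replicate 2 on top in each genotype. On the ratio of mean CPM, WT was 10-fold above Acss2-KO for H2-Aa, 8.26-fold for H2-Ab1 and 11.7-fold for H2-Eb1. Without WT2 these ratios were 6.12, 4.7 and 6.26.

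The invariant chain fell too. Cd74, the invariant chain that guides class II dimers to endosomes (chromosome 18, 60803848 to 60812646), was at 14.9, 22.3 and 11.7 CPM in Acss2-KO and at 56.5, 197 and 54.9 CPM in WT. It fell by 2.36 on the log2 scale (SE 0.52, limma adjusted p = 0.0151), again with no overlap and with WT2 on top. The Cd74 call was lost without KO1 (adjusted p = 0.0556) or KO3 (0.0578). H2-DMa and H2-DMb1 encode the H2-DM dimer that swaps the invariant chain fragment for peptide, and both were under the filter on low values. H2-DMa (34135182 to 34139101) was at 1.19 and 1.01 CPM in KO1 and KO2 and listed at 0 in KO3, against 2.43, 7.94 and 2.83 CPM in WT. H2-DMb1 (34153072 to 34160230) was listed at 0 throughout Acss2-KO, against 2.11, 6.59 and 2.23 CPM in WT. Ciita, the class II transactivator (chromosome 16, 10488178 to 10527564), was listed at 0 throughout Acss2-KO, and in WT it was at 1.28, 3.53 and 0 CPM. Ciita is therefore near the floor of the table in every library, and its groups overlap at 0.

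**Figure D2:**
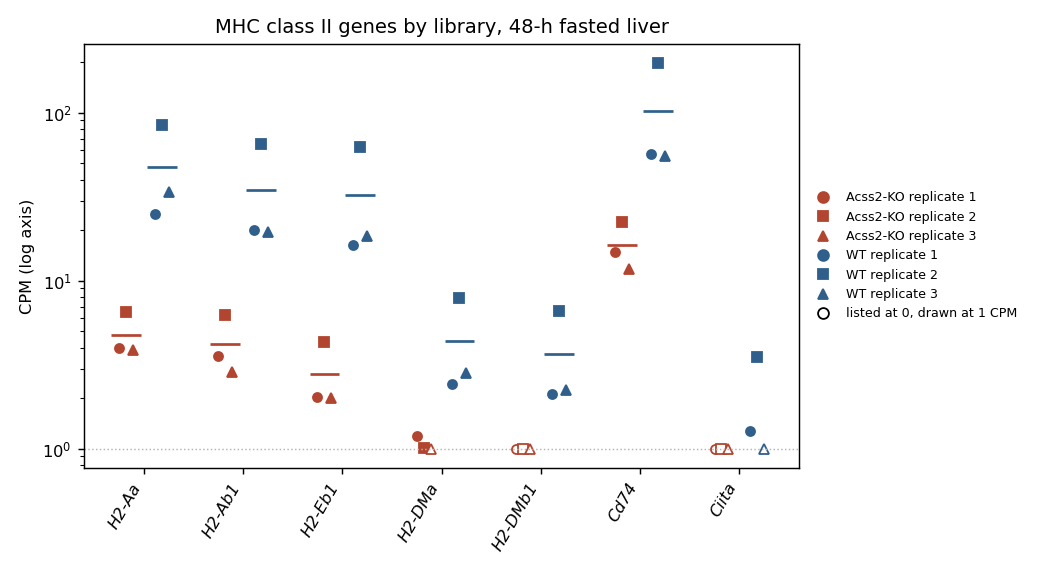
CPM of the 7 class II genes in each library on a log axis, with bars at group means where no library is listed at 0; open symbols are values listed at 0 and drawn at 1 CPM. Each gene but Ciita is lower in all Acss2-KO libraries than in all WT libraries, and WT2 (square) is the highest WT library for every gene.

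Of the 7 class II genes, 4 were tested and these 4 fell, where 23.1% of all genes tested were called lower. H2-Aa, H2-Ab1 and H2-Eb1 had Acss2-KO means under 5 CPM and passed the filter through the WT group, so this count is no support in itself. With no filter, H2-DMa (adjusted p = 0.021) and H2-DMb1 (0.0297) were also called lower and Ciita was not (0.245), although values listed at 0 enter that fit at 1 CPM. The authors' deposited table gives all 7 class II genes an adjusted p under 0.05 and a negative fold change, where 14.7% of its genes are called lower. Without WT2, the library with the highest class II levels, log2 fold changes were -2.40 for H2-Aa, -2.05 for H2-Ab1, -2.34 for H2-Eb1 and -1.76 for Cd74, and each was still called.

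In bulk liver, fewer cells of a type and less RNA per cell cannot be told apart. The summed level of the 7 class II genes was 25.7, 40.3 and 20.4 CPM in Acss2-KO and 124, 427 and 132 CPM in WT. Summed over 12 Kupffer cell markers, the level was 136, 215 and 198 CPM in Acss2-KO and 243, 715 and 336 CPM in WT. WT2 was highest in both sums. Of 10 Kupffer markers tested with limma 3 fell (Clec4f, Adgre1 and Cd5l) and none rose (0 at an unadjusted p under 0.05). The share that fell, 30%, is near the 23.1% of all genes tested, and Adgre1 passed the filter only through WT. The median log2 fold change of the 10 was -0.83, against -0.12 over all genes tested. Cd5l, a protein that macrophages secrete, was at 3.18, 21.1 and 10.8 CPM in Acss2-KO and 46.9, 152 and 68.6 CPM in WT. Clec4f, which defines Kupffer cells, was at 24.1, 46.2 and 43.4 CPM in Acss2-KO and 52.3, 128 and 74.5 CPM in WT, and Adgre1 (F4/80) at 2.35, 5.28 and 4.5 CPM in Acss2-KO and 7.52, 28.1 and 9.19 CPM in WT. No Kupffer marker was called without WT2, and 1 was with median-of-ratios, trimmed-mean or quantile scaling and without WT3 or KO3. Timd4 and Folr2 were listed at 0 in KO1.

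Summed over 5 general leukocyte genes the level was 28.3, 22.8 and 28.7 CPM in Acss2-KO and 32, 86.8 and 47.8 CPM in WT. Of the 3 leukocyte genes tested 1 fell (33.3%, against 23.1% of all genes tested). This was Ptprc (CD45), at 2.79, 2.81 and 3.43 CPM in Acss2-KO and 6.11, 16.3 and 8.63 CPM in WT. Ptprc passed the filter only through WT, and without WT2 it was not tested and neither of the 2 leukocyte genes tested was called. The B cell markers Cd79b and Cd22 were at 0 throughout Acss2-KO. In WT, Cd79b was at 0, 1.3 and 2.01 CPM and Cd22 at 1.18, 2.79 and 1.45 CPM. Of 8 dendritic cell markers 3 were listed, and they did not go one way. Itgax (CD11c) was at 0 throughout Acss2-KO and at 1.59, 3.68 and 0 CPM in WT, and Clec9a was at 1.78, 2.22 and 2.48 CPM in Acss2-KO and 3.78, 2.69 and 4.29 CPM in WT. Zbtb46, the 1 that was tested, was at 9.19, 9.92 and 9.65 CPM in Acss2-KO and 6.82, 7.41 and 5.78 CPM in WT, without overlap (log2 fold change 0.47, limma adjusted p = 0.0532), and it was called higher with each of the other 3 scalings. The dendritic list summed to 11, 12.1 and 12.1 CPM in Acss2-KO and 12.2, 13.8 and 10.1 CPM in WT. Of 7 T and NK cell markers only Nkg7 was listed, at 0 in Acss2-KO and at 0, 2.01 and 1.12 CPM in WT. Sinusoidal endothelial markers overlapped, with sums of 399, 326 and 412 CPM in Acss2-KO and 313, 437 and 295 CPM in WT, while single members went both ways. Of the 8 tested, Lyve1 rose (12.5%, against 13.4% of all genes), and Clec4g and Fcgr2b fell (25%, against 23.1%), so both shares are near the background with this scaling. At an unadjusted p under 0.05, limma put 3 higher. The count that rose was 3 with trimmed-mean scaling, and 2 with median-of-ratios or quantile scaling and without WT2 or KO2. With these 3 scalings 1753 to 1791 of all 9355 genes rose, against 1252. Of 6 stellate cell markers 2 fell, Lrat and Colec11 (33.3%, against 23.1% of all genes). Lrat passed the filter only through WT, with an Acss2-KO mean of 4.64 CPM. The stellate sums overlapped (361, 218 and 280 CPM in Acss2-KO, 244, 367 and 350 CPM in WT). Sox9, the 1 cholangiocyte marker listed of 4, rose (7.01, 11 and 10.6 CPM in Acss2-KO, 3.16, 4.35 and 2.14 CPM in WT). It passed the filter only through Acss2-KO, with a WT mean of 3.22 CPM, so its call is no support in itself. Of 4 hepatocyte markers listed 1 fell, Ttr (25%, against 23.1% of all genes), and their sums overlapped between the genotypes.

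The class II sum was also lower in Acss2-KO when set against the leukocyte, Kupffer, sinusoidal endothelial and dendritic marker sums. Per CPM of the leukocyte genes, the class II sum was 0.908, 1.77 and 0.711 in Acss2-KO and 3.88, 4.92 and 2.76 in WT. Per CPM of the Kupffer markers it was 0.189, 0.187 and 0.103 in Acss2-KO and 0.51, 0.597 and 0.393 in WT. Per CPM of the sinusoidal endothelial markers it was 0.0644, 0.124 and 0.0495 in Acss2-KO and 0.396, 0.977 and 0.447 in WT. Per CPM of the dendritic markers, whose sum is mostly Zbtb46, the class II sum was 2.34, 3.33 and 1.69 in Acss2-KO and 10.2, 30.9 and 13.1 in WT. None of these ratios overlapped between the genotypes. The B cell markers summed to 0 in every Acss2-KO library and to 2.26, 4.09 and 5.83 CPM in WT, so no ratio to them could be formed. How much of the class II difference follows the marker-bearing cells was not tested.

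**Figure D3:**
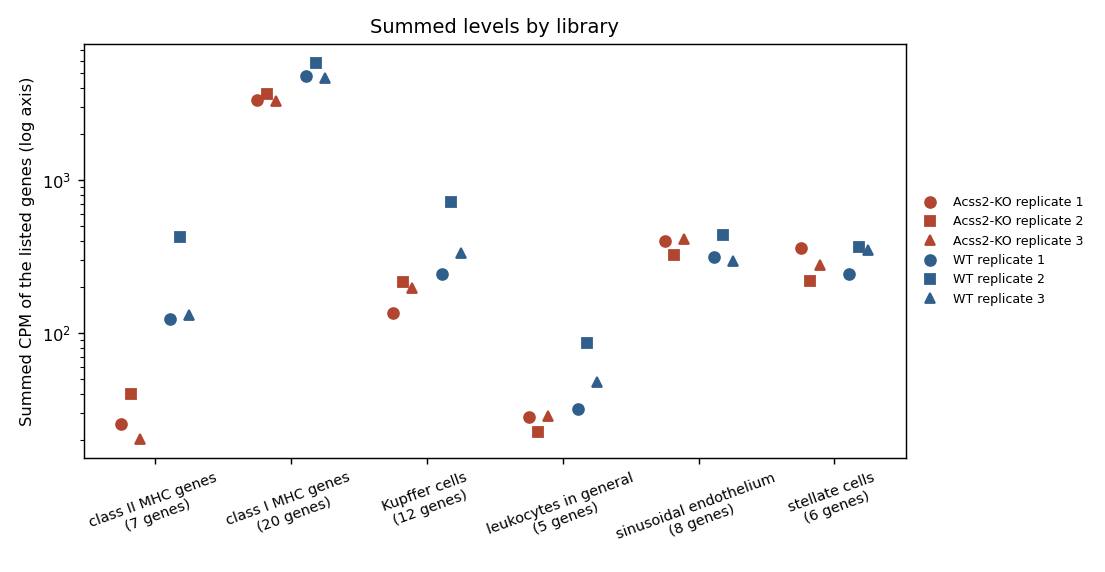
Summed CPM, on a log axis, of the class II genes, the class I genes and the markers of 4 kinds of liver cells, in each library. The class II sums lie at 20.4 to 40.3 CPM in Acss2-KO and 124 to 427 CPM in WT, while the endothelial sums overlap.

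The classical class I heavy chains, which present peptides to CD8 T cells, did not pass the test. H2-K1 (chromosome 17, 33996017 to 34000333) was at 1031, 1024 and 936 CPM in Acss2-KO and at 1209, 1552 and 989 CPM in WT, so that WT3 lay inside the Acss2-KO range. Its log2 fold change was -0.30 (SE 0.22, limma adjusted p = 0.303). H2-D1 (35262730 to 35267499) was at 549, 478 and 498 CPM in Acss2-KO and at 530, 719 and 461 CPM in WT, with a log2 fold change of -0.14 (SE 0.22, limma adjusted p = 0.63). Its value was at or above 0 with quantile normalization and without WT2.

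Their partner B2m, the light chain (chromosome 2, 122147686 to 122153083), was lower in Acss2-KO. It was at 508, 765 and 613 CPM in Acss2-KO and at 1160, 1552 and 1305 CPM in WT, with no overlap. Means were 629 ± 129 CPM in Acss2-KO and 1339 ± 198 CPM in WT (SD, n = 3 each), and the log2 fold change was -1.10 (SE 0.23, limma adjusted p = 0.00722). The call held when any 1 library was left out (adjusted p 0.00343 to 0.037), and it was lost with WT2 and KO1 left out together (0.071). Per CPM of H2-K1 and H2-D1 together, B2m stood at 0.322, 0.51 and 0.428 in Acss2-KO and at 0.667, 0.683 and 0.9 in WT. The log2 of this ratio differed by -0.85 (-1.28 ± 0.33 in Acss2-KO and -0.43 ± 0.24 in WT, SD, n = 3 each). The exact two-sided permutation p = 0.1 is the smallest that 3 against 3 can give. The ratio was not planned and is built from the values above, so it is no separate support.

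Non-classical genes of the Q region moved in opposite directions. H2-Q10, which encodes a secreted class I protein made by the liver (35470089 to 35474563), was at 666, 714 and 671 CPM in Acss2-KO and at 1038, 1090 and 1113 CPM in WT. It fell by 0.66 on the log2 scale (SE 0.18, limma adjusted p = 0.0214), with groups that were tight and far apart. H2-Q6 and H2-Q7 encode the Qa-2 antigens and rose. H2-Q6 (35424850 to 35430055) was at 78.8, 50.6 and 49.5 CPM in Acss2-KO and at 23.3, 32.9 and 21.4 CPM in WT, a log2 fold change of 1.17 (SE 0.24, limma adjusted p = 0.00685). H2-Q7 (35439155 to 35443773) was at 44.6, 41.1 and 38.6 CPM in Acss2-KO and at 22.5, 31.3 and 24.9 CPM in WT, a log2 fold change of 0.65 (SE 0.17, limma adjusted p = 0.02). Neither gene overlapped between the genotypes. H2-Q4 (35379617 to 35385290) overlapped, at 72, 49.5 and 56.1 CPM in Acss2-KO and 45.6, 57.7 and 39.7 CPM in WT (log2 fold change 0.31, SE 0.21, limma adjusted p = 0.266). H2-Q1 (35320405 to 35325099) was listed at 0 throughout Acss2-KO and at 7.11, 4.44 and 1.38 CPM in WT. These genes lie side by side on chromosome 17 and their reads may be shared. H2-Q5, a row between H2-Q4 and H2-Q6 that the authors' deposited table types as a polymorphic pseudogene, is no member. H2-Q5 was at 11.2, 8.51 and 9.51 CPM in Acss2-KO and 3.61, 3.05 and 3.81 CPM in WT (log2 fold change 1.25, SE 0.18, limma adjusted p = 0.00193). It was picked out after its values were seen, and it passed the filter only through Acss2-KO, with a WT mean of 3.49 CPM. It is 1 of 4 H2 rows of another type that the rule leaves out.

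The H2-Q6 call held without any 1 library (adjusted p 0.00533 to 0.0367). H2-Q7 lost its call without WT1 (0.0857), KO1 (0.0565) or KO3 (0.0575). H2-Q10 lost it without WT1 (0.0687), WT2 (0.0853), KO3 (0.0936) or KO1 (0.05 after rounding), and with quantile normalization (0.05 after rounding).

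Both tested genes of the T region fell. H2-T22, a ligand of a subset of gamma delta T cells (36037128 to 36042747), was at 22.8, 29.9 and 28.1 CPM in Acss2-KO and at 53.1, 77.2 and 65.8 CPM in WT, and fell by 1.24 on the log2 scale (SE 0.19, limma adjusted p = 0.00247). H2-T23, which encodes Qa-1, a ligand of the inhibitory CD94/NKG2A receptor (36029773 to 36032855), was at 79.9, 82.1 and 79.9 CPM in Acss2-KO and at 130, 147 and 106 CPM in WT, and fell by 0.64 (SE 0.18, limma adjusted p = 0.0224). The H2-T22 call held without any 1 library. That of H2-T23 was lost without WT1 (0.076), WT2 (0.0977), KO1 (0.051) or KO3 (0.0864). H2-T24 (36005695 to 36020560) was under the filter, at 1.33, 1.91 and 1.74 CPM in Acss2-KO and 3.92, 5.62 and 3.51 CPM in WT, without overlap. H2-M3, which presents N-formylated peptides (37270220 to 37274484), was also under the filter and overlapped, at 3.12, 2.73 and 3.25 CPM in Acss2-KO and 1.84, 3.86 and 3.39 CPM in WT.

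Class I-like genes outside chromosome 17 present other antigens. Cd1d1, which presents lipids to natural killer T cells (chromosome 3, 86995834 to 86999441), was at 42.5, 158 and 74 CPM in Acss2-KO and at 232, 209 and 282 CPM in WT. The Acss2-KO libraries were spread widely and all lay below WT, and the log2 fold change was -1.58 (SE 0.42, limma adjusted p = 0.023). The call was lost without WT1 (0.07), WT2 (0.0618), WT3 (0.0797) or KO3 (0.0746). Mr1, which presents vitamin B metabolites to MAIT cells (chromosome 1, 155127277 to 155146814), was under the filter, at 1.54, 2.73 and 1.74 CPM in Acss2-KO and 2.64, 5.28 and 4.66 CPM in WT, with KO2 above the lowest WT library.

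**Figure D4:**
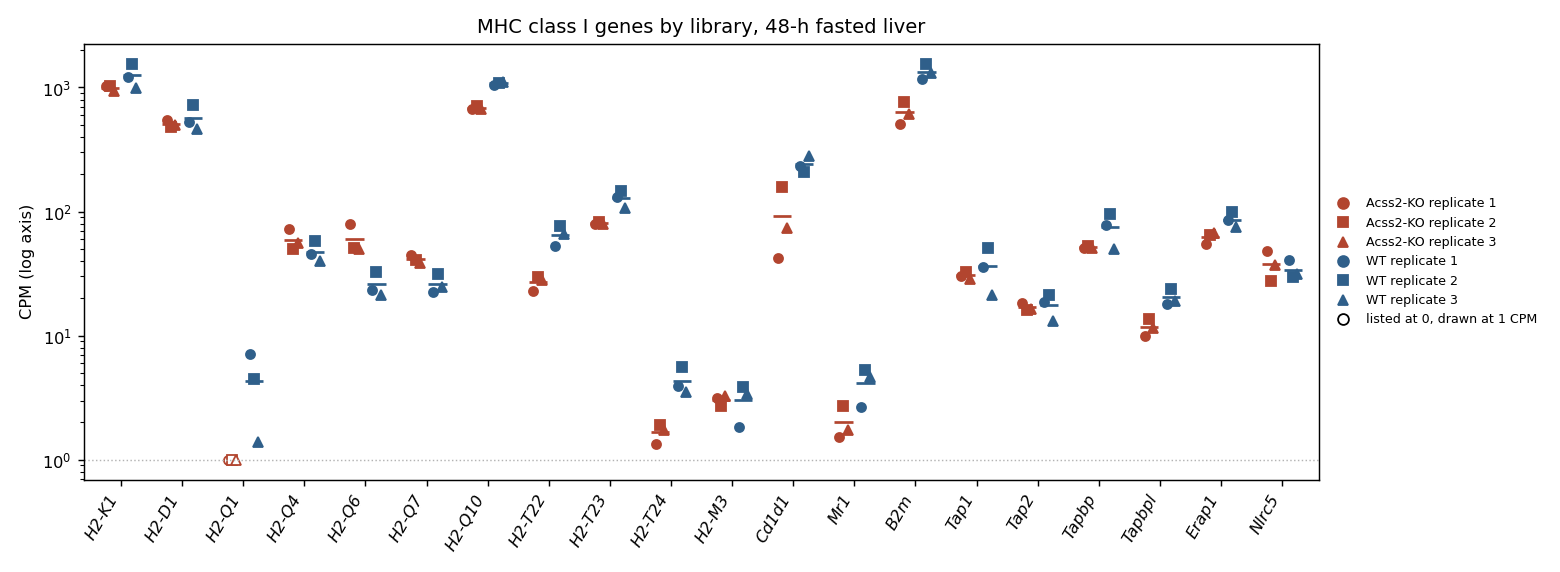
CPM of the 20 class I genes in each library on a log axis, with bars at group means where no library is listed at 0; open symbols are values listed at 0 and drawn at 1 CPM. H2-K1 and H2-D1 overlap between the genotypes, B2m, H2-Q10, H2-T22 and Cd1d1 are lower in every Acss2-KO library, and H2-Q6 and H2-Q7 are higher.

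The peptide loading genes mostly did not pass the test. Tap1 and Tap2 encode the transporter that carries peptides into the endoplasmic reticulum. Tap1 (chromosome 17, 34187553 to 34197225) was at 30.5, 32.9 and 28.4 CPM in Acss2-KO and at 35.8, 51.3 and 21.4 CPM in WT (log2 fold change -0.15, SE 0.28, limma adjusted p = 0.695). Tap2 (34203527 to 34216321) was at 18.5, 16.2 and 16.4 CPM in Acss2-KO and at 18.6, 21.3 and 13.2 CPM in WT (log2 fold change -0.03, SE 0.20, limma adjusted p = 0.927). For both, the WT libraries ranged on either side of all Acss2-KO libraries. Tapbp (tapasin), the chaperone that holds class I at the transporter (33915899 to 33929288), was at 51.3, 52.7 and 50.9 CPM in Acss2-KO and 78.2, 95 and 50.2 CPM in WT, and did not pass (log2 fold change -0.47, SE 0.23, limma adjusted p = 0.138) except without WT3 (0.0193). Tapbpl, a tapasin-related peptide editor (chromosome 6, 125223933 to 125231860), was at 9.92, 13.6 and 11.5 CPM in Acss2-KO and 18, 23.9 and 19.2 CPM in WT, and fell by 0.75 on the log2 scale (SE 0.19, limma adjusted p = 0.0144). Its call was lost without WT2 (0.059) or KO3 (0.0576). Erap1, the aminopeptidase that trims peptides in the endoplasmic reticulum (chromosome 13, 74639872 to 74691875), did not overlap, at 54.9, 65.3 and 67.2 CPM in Acss2-KO and 85, 98.4 and 75.6 CPM in WT. It missed the threshold (log2 fold change -0.46, SE 0.18, limma adjusted p = 0.0695). It passed without WT3 (0.0443). Nlrc5, the class I transactivator (chromosome 8, 94472763 to 94527272), was at 47.8, 27.7 and 37 CPM in Acss2-KO and at 40.8, 29.7 and 31.3 CPM in WT, with overlap (log2 fold change 0.12, SE 0.23, limma adjusted p = 0.699).

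Of the 20 class I genes, 16 were tested. A fall was called for 6 (37.5%), where 23.1% of all genes tested fell, and a rise for 2 (12.5%), where 13.4% of all genes tested rose, so the share that rose is near the background. The median log2 fold change of the 16 was -0.38, against -0.12 over all genes tested. Libraries did not overlap for 7 lower (43.8%) and 2 higher genes (12.5%) of the 16, against 32.8% lower and 20.1% higher over all genes tested. The count of 6 became 3 when WT1 was left out and 2 when WT2 or KO3 was, and the count of 2 became 1 without WT1, KO1 or KO3. With median-of-ratios scaling the split over all genes was 1753 higher and 1681 lower in place of 1252 and 2161, with a median log2 fold change of 0.01, and the class I counts were again 6 and 2. The authors' deposited table calls 5 class I genes lower and 1 higher of 20, where it calls 14.7% of its genes lower and 12.5% higher. These are not the same genes as here. Its lower genes are B2m, H2-T22, Cd1d1, H2-Q1 and H2-T24, of which H2-Q1 and H2-T24 were under the filter here, and its higher gene is H2-Q6. The authors' adjusted p was above the threshold for H2-Q10 (0.32), H2-T23 (0.32), Tapbpl (0.19) and H2-Q7 (0.08), which limma called here.

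**Figure D5:**
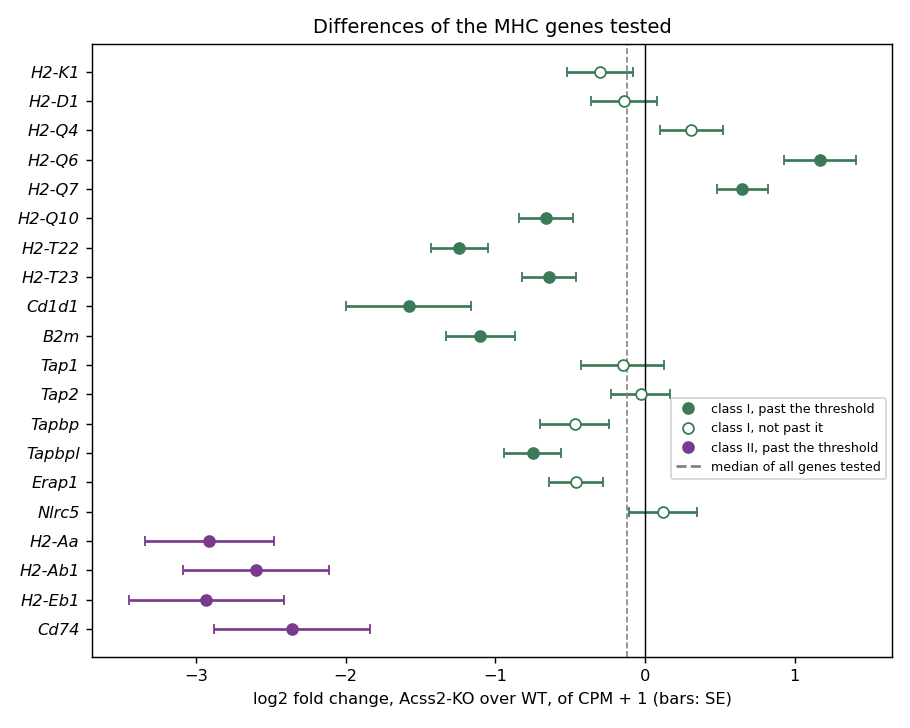
Log2 fold changes (Acss2-KO over WT, of CPM + 1) with SE for the 20 MHC genes tested; filled points passed an adjusted p of 0.05 and the dashed line is the median of all genes tested, -0.12. Class II genes lie between -2.93 and -2.36 and class I genes between -1.58 and 1.17.

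Genes that make peptides for class I or help it fold were compared as a list of 14, all tested, of which 5 fell (35.7%, against 23.1% of all genes) and none rose (median log2 fold change -0.40). At an unadjusted p under 0.05, limma put 1 higher, and 1 or 2 rose with other scalings. The 5 were the subunits of the immunoproteasome and of its PA28 activator. Psmb10 was at 5.82, 7.31 and 5.7 CPM in Acss2-KO and 17.5, 28.2 and 21.1 CPM in WT (log2 fold change -1.66, SE 0.21, limma adjusted p = 0.00107). Psmb9 was at 5.1, 8.94 and 5.1 CPM in Acss2-KO and 14.6, 27.5 and 18.6 CPM in WT (-1.52, SE 0.27, limma adjusted p = 0.00429). The activator subunits Psme2 (-1.30, limma adjusted p = 0.00175) and Psme1 (-0.95, 0.0163) fell too. The remaining subunit, Psmb8, named after its value was seen, fell by 0.72 (limma adjusted p = 0.0321). Psme1 lost its call without WT2 (0.0518) or KO3 (0.0538), and Psmb8 with any of the other 3 scalings (0.0592 to 0.0727) and without WT2 (0.113), WT3 (0.0659), KO1 (0.0938) or KO3 (0.0823). Without WT2 or KO3, 3 of the list fell. The chaperones of class I folding Calr, Canx and Pdia3 did not pass, with log2 fold changes of 0.40, -0.40 and 0.48.

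Psmb9 and Tap1 are neighbours, and their deposited spans overlap by 212 bases, so reads there cannot be told apart without strand. Psmb9 fell and Tap1 did not pass the test. Per CPM of Tap1, Psmb9 stood at 0.167, 0.272 and 0.179 in Acss2-KO and at 0.409, 0.536 and 0.871 in WT. The difference was -1.52 in log2 (-2.31 ± 0.38 in Acss2-KO and -0.80 ± 0.55 in WT, SD, n = 3 each). The exact two-sided permutation p = 0.1 is the smallest possible. This ratio too was not planned and is built from values already seen, so it is no separate support.

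Among 8 tested genes of the class II endosomal route, out of 11 entries, 3 fell (37.5%, against 23.1% of all genes) and 1 rose (12.5%, against 13.4%). Ctsl (cathepsin L) was at 3875, 1541 and 2487 CPM in Acss2-KO and 666, 600 and 861 CPM in WT (log2 fold change 1.81, SE 0.33, limma adjusted p = 0.00447). Ctsb (-1.03), Ctsh (-0.78) and March8, a ubiquitin ligase that acts on class II (-0.71), fell, with limma adjusted p-values between 0.0112 and 0.0176. None of the 3 was called without KO3, and 2 of the list fell without WT2. Ctss (cathepsin S), which cuts the invariant chain in professional antigen-presenting cells, overlapped at 19.6, 16.2 and 18.4 CPM in Acss2-KO and 15.7, 48.5 and 21.4 CPM in WT (limma adjusted p = 0.323), with WT2 high again; it was named after its value was seen.

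Of the 7 genes for factors of the X and Y boxes, 3 fell (42.9%, against 23.1% of all genes) and none rose in limma (0 at an unadjusted p under 0.05; 1 rose without KO1). Nfya, a subunit of the NF-Y factor that binds the Y box, was at 3.39, 5.58 and 3.43 CPM in Acss2-KO and 14.5, 14.2 and 11.2 CPM in WT (log2 fold change -1.50, SE 0.22, limma adjusted p = 0.00182). It passed the filter only through WT, with an Acss2-KO mean of 4.13 CPM. Nfyb (-0.58, 0.0263) and the X box factor gene Rfx5 (-0.68, 0.0281) fell with smaller values (log2 fold change and limma adjusted p). Their calls were lost in several settings, and with 1 library left out the count was 1 without WT1, WT2 or KO3, and 2 without any of the other 3. With trimmed-mean scaling it was 1.

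Among interferon signalling genes 7 of 13 tested fell (53.8%, against 23.1% of all genes) and none rose in limma (0 at an unadjusted p under 0.05; median log2 fold change -0.62). Irf9 was at 5.21, 12.9 and 7.84 CPM in Acss2-KO and 38.6, 45.3 and 31.3 CPM in WT (log2 fold change -2.09, SE 0.29, limma adjusted p = 0.0015). Irf1, a factor that interferon gamma induces, was at 12.4, 12.4 and 8.22 CPM in Acss2-KO and 22.3, 45.6 and 24.3 CPM in WT (-1.35, SE 0.28, limma adjusted p = 0.00757). Stat2 fell by 0.78 (limma adjusted p = 0.0128) and lost its call without KO3 (0.0617). The list's count was 4 without WT1 or KO3. Of the interferon gamma receptor genes, Ifngr2 fell (-0.51, limma adjusted p = 0.038) and Ifngr1 did not pass (0.31, limma adjusted p = 0.225), both named after their values were seen. The Ifngr2 call was lost with each of the other 3 scalings and when any 1 library was left out. Of 4 tested NF-kB subunits, Rel rose (0.75, limma adjusted p = 0.0165) and Nfkb2 fell (-0.64, 0.0399). The share that rose was 25%, against 13.4% of all genes, and the share that fell 25%, near the 23.1% of all genes. With each of the other 3 scalings 2 rose and none fell. The Nfkb2 call was lost with any other scaling and when any library other than WT3 was left out, and that of Rel without WT3 (0.0505) or KO3 (0.0681). None of the costimulatory and checkpoint ligand genes was tested. Of the 3 listed, Cd86 was at 0, 1.01 and 0 CPM in Acss2-KO and 1.71, 5.1 and 2.95 CPM in WT, and Cd274 (PD-L1) at 1.46, 1.01 and 0 CPM in Acss2-KO and 2.11, 5.94 and 2.57 CPM in WT.

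The 16 H2 members on chromosome 17 span 3.28 Mb (33996017 to 37274484). Of the 77 other genes listed in this span, 55 were tested, of which 14 fell (25.5%) and 6 rose (10.9%), near the 23.1% and 13.4% of all genes tested, with a median log2 fold change of -0.01. Those with the smallest p included the lipid enzyme gene Agpat1 (-1.99, SE 0.20), the tubulin acetyltransferase gene Atat1 (-1.94, SE 0.26) and the lysosomal sialidase gene Neu1 (-0.85, SE 0.16). Their limma adjusted p-values were 0.00048, 0.00132 and 0.00549. Psmb9 and Psmb8, counted above among the genes that make peptides for class I, are also among the 14 that fell. Agpat1 and Atat1 had Acss2-KO means of 2.27 and 3.29 CPM and passed the filter only through WT, as did others of the 14, so the count that fell is no support in itself. Among those that rose was Mrps18b, a mitochondrial ribosomal protein gene (0.91, SE 0.21, limma adjusted p = 0.0101). Calls in the span depended on scaling and on single libraries: with median-of-ratios scaling 13 rose and 12 fell, without KO2 the count that rose was 14, without KO3 it was 1 (8 fell), and without WT2, WT3 or KO1 it was 3.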

How the data were processed

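RNA of 3 Acss2-KO and 3 WT livers was prepared with an Illumina TruSeq kit from total RNA, per the labels' protocols. The authors deposited log2 CPM per gene and library, rounded to 2 decimals with values under 1 CPM listed at 0, as read from the values, whose antilogs sum to 997061 to 997856 per library. The authors' deposited table also holds a log2 fold change with its p-value, raw and adjusted, and no source used here names the test. The submitters' processing notes name Bowtie 0.12.2 and mm8 without saying what for. Coordinates are printed as deposited; compared with RefSeq on GRCm38.p6, the starts of 11623 genes differ by a median of 8 bp.

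Here CPM values (a listed 0 set to 1 CPM) entered limma 3.58.1 as log2(CPM + 1), under R 4.3.3, with statmod 1.5.0 for its robust option and with the variance trended on the mean. Genes averaging under 5 CPM were left out, and p-values were adjusted by Benjamini-Hochberg over the rest. The scale understates the change of low genes. The procedure was tested on simulated data. The spacing of the lowest CPM values gave the estimated depth. Class and role were assigned by symbol. The members and lists were chosen with earlier results of these data known. Named genes were every member, Acss2, and up to 4 changed genes per list or direction with the smallest p, and not all of the latter are named. Alternatives were other scalings, pseudocounts, filters, libraries left out and a replicate block. Some genes of the lists are not reported here.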

Additional observations from a re-analysis of the deposited data

How the results depend on the processing

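Class II counts were little affected by the settings tried. The 4 genes called lower numbered 3 to 4 with 1 library left out, and with a minimum mean of 20 CPM 2 genes were tested and 2 were called. None was called higher, by limma or in any alternative, and all 4 tested had negative log2 fold changes. For class I, the 6 genes called lower numbered 2 to 7 with 1 library left out, and 2 with WT replicate 2 and Acss2-KO replicate 1 left out together. With no filter, all 20 class I genes were tested and 9 were called lower, where 2906 of all 12366 genes were. H2-T24 (limma adjusted p = 0.00728), H2-Q1 (0.0407) and Mr1 (0.0417) were then among them, although values listed at 0 enter that fit at 1 CPM. The 2 class I genes called higher numbered 1 to 2 with 1 library left out. Signs turned only for members near 0: H2-D1 with quantile normalization (0.00), Tap1 with both libraries out (0.14), Tap2 with median-of-ratios, trimmed-mean or quantile scaling (0.10 each) and with both out (0.06), and Nlrc5 with both out (-0.16). With 1 library left out, log2 fold changes ranged from -0.28 to 0.04 for H2-D1, from -0.47 to 0.14 for Tap1, from -0.21 to 0.11 for Tap2 and from -0.07 to 0.32 for Nlrc5. The cause was not tested. With the replicate number as a block, the counts were 6 lower and 2 higher in class I and 4 lower in class II. The limma adjusted p of H2-Aa was 3e-05 with the block and 0.00325 without it, and 5 Kupffer markers were called lower in place of 3. Over all genes tested, libraries of the same number did not deviate together (correlations of -0.10, -0.14 and 0.09), so the numbers are taken as names only. In the class II chain genes, replicate 2 was on top in each genotype. The deposited values have a floor of 1 CPM, so genes listed at 0, such as H2-DMb1 and Ciita in Acss2-KO, have no value below it whatever the depth (21.8 to 30.8 M reads).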
